A study of Mus musculus with 4 samples.

Results

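The genes that write, copy, read and remove cytosine methylation were compared between WT and REST-/- mouse embryonic stem cells (ESCs). The set was chosen by gene name, with earlier results of these data known. It held 10 genes, Dnmt1, Dnmt3a, Dnmt3b, Dnmt3l, Uhrf1, Tet1, Tet2, Tet3, Tdg and Mbd2, out of the 26301 genes in the count table. Of these, 7 were found under their current symbols, while Tet1, Tet2 and Tet3 stood under the older symbols Cxxc6, E130014J05Rik and D230004J03Rik and were matched by Entrez gene identifier. All 10 passed the filter on low counts, which left 15444 genes to test.

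RNA-seq libraries were made from the ESC lines N6 (WT) and N8 (REST-/-, for the transcriptional repressor REST), with 2 biological replicates per genotype. Each genotype was represented by 1 line, so a difference between genotypes and a difference between the lines cannot be told apart. Both lines had been kept in leukemia inhibitory factor and serum with a fibroblast feeder layer, which 3 feeder-free passages on gelatin were meant to deplete before RNA was taken. How the replicate cultures were separated was not stated in the labels, so the p-values below measure the spread between these libraries, which may be technical.

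DNA methylation in mammals is set by Dnmt3a and Dnmt3b, which methylate CpG sites de novo, helped by Dnmt3l, a relative without catalytic activity of its own. Dnmt1 then copies the pattern after each round of replication, and Uhrf1 brings it to hemimethylated DNA. The Tet enzymes oxidise 5-methylcytosine, Tdg excises the most oxidised forms so that repair can restore cytosine, and Mbd2 binds methylated CpG as part of a NuRD corepressor complex. ESCs grown in serum are known for active de novo methylation alongside high Tet1 and Tet2, and REST recruits corepressors to DNA through the RE1 element.

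The 4 libraries held 22293966 to 30953863 gene-assigned reads. In CPM, counts scaled by library size with TMM normalization to a total of 1e6, the floor of 3 counts, by library size alone, lay at 0.0969 to 0.135 per library, a limit that covers counting error only, and each of the 10 genes was above it in every library. Rest itself, read first as the check of the labels, stood at 255 and 233 CPM in the WT libraries and at 164 and 176 CPM in the REST-/- libraries. Both REST-/- libraries were lower, but the log2 fold change of -0.52 (SE 0.13) had an adjusted p of 0.526 in edgeR's quasi-likelihood test, and counts over the whole gene do not show which exons the reads came from. Markers of other cell states were read alongside. The pluripotency factor Pou5f1 was measured at 669 to 750 CPM over the 4 libraries, with a log2 fold change of 0.079. Zfp42, a marker of naive ESCs, stood at 704 and 541 CPM in WT and at 258 and 226 CPM in REST-/- (log2 fold change -1.36, adjusted p 0.179 in edgeR's quasi-likelihood test). The 9 pluripotency markers summed to 3747 and 3638 CPM in the WT libraries and to 2862 and 3156 CPM in the REST-/- libraries. The 12 primitive endoderm markers summed to 582 and 759 CPM in WT and to 979 and 1022 CPM in REST-/-. Of the endoderm sum, Sparc made up 269 to 389 CPM and Lamb1 129 to 281 CPM over the 4 libraries. Sox17, Foxa2 and Sox7 overlapped between the genotypes, with Sox17 and Foxa2 below 1 CPM in every library. Both REST-/- libraries lay below both WT libraries for 4 of the 9 pluripotency markers and above them for 9 of the 12 primitive endoderm markers, orderings found in 15.4% and 16.5% of all genes tested. Of the pluripotency markers 7 of 9 had a log2 fold change below 0, with a median of -0.32, and of the primitive endoderm markers 12 of 12 were above 0, with a median of 0.71. The 12 feeder fibroblast markers summed to 880 and 1133 CPM in WT and to 1047 and 1161 CPM in REST-/-, sums made up mostly of Fn1 at 741 to 1099 CPM. Of the 10 tested, 8 had a log2 fold change above 0, with a median of 1.66. The collagen genes of this list were highest in 1 library, REST-/- replicate 1. Col1a1 stood at 11.8 and 6.42 CPM in WT and at 46.1 and 8.21 CPM in REST-/-, and Col1a2 at 6.26 and 4.25 against 28.5 and 3.84 CPM, whereas Lum was at 0 counts and Dcn at no more than 5 counts in every library. The 6 primed and formative markers summed to 205 and 184 CPM in WT and to 207 and 179 CPM in REST-/-, of which Lefty2 made up 113 to 155 CPM. Of these 6, 5 had a log2 fold change above 0 (median 0.35), and brachyury, listed as T, stood at 1.13 and 0.448 CPM in WT and at 14.9 and 5.33 CPM in REST-/-. None of these markers passed an adjusted p of 0.05 in edgeR's quasi-likelihood test, with an unadjusted p under 0.05 for 4 pluripotency, 3 primitive endoderm, 1 primed and 1 feeder marker, out of 9, 12, 6 and 10 tested, a rule met by 6.71% of all genes. DESeq2 called 4 of the markers and edgeR's exact test called 4 with tag-wise and 10 with common dispersion, where these tests called 1.54%, 1.51% and 2.22% of all genes. The part of these markers in the differences below was not tested.

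The start regions of the genes on which the comparison turns are shown for Dnmt3a and Uhrf1, whose REST-/- libraries lay apart from WT with the smallest p-values of the set, and for Dnmt3l as the CpG-poor contrast. Each run gives the 250 bases before an annotated start on the sense strand, from RefSeq on GRCm38.p6, with CpG dinucleotides in capitals. The windows are chr12:3806730-3806979 and chr12:3891494-3891743 for an upstream and a downstream start of Dnmt3a, chr17:56304063-56304312 for Uhrf1 and chr10:78049592-78049841 for Dnmt3l.
Dnmt3a upstream: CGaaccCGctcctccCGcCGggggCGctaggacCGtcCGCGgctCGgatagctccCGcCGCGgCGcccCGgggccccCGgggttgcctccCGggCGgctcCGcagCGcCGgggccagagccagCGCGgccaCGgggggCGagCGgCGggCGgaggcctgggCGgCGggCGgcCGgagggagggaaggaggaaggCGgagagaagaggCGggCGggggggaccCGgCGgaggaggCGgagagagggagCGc
Dnmt3a downstream: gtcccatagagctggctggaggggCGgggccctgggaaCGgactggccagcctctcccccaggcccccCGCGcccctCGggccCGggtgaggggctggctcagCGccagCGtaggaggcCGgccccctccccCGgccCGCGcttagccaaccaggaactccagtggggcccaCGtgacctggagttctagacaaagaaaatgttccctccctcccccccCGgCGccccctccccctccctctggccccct
Uhrf1: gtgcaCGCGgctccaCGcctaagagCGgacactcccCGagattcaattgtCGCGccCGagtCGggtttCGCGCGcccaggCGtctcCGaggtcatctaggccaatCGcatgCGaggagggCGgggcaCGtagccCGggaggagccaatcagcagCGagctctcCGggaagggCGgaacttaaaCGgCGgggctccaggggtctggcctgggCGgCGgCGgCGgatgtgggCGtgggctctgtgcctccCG
Dnmt3l: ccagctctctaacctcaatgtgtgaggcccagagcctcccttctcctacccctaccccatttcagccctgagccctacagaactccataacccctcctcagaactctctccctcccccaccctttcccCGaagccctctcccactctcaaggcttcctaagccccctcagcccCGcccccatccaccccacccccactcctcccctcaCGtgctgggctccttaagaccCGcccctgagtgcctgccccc

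These runs held 38 CpG at the upstream Dnmt3a start, 15 at the downstream start, 30 at Uhrf1 and 4 at Dnmt3l. Uhrf1 has another annotated start upstream, not printed, whose 250 bases held 10 CpG. Windows of 300 bases, which add the 50 bases after the start, were read for 9 of the 10 genes, leaving out Mbd2, and numbered 16. Of these, 8 held 20 or more CpG, a density found in 26.5% of the 32851 such windows of all genes, whose median was 7.0 CpG. The window of Tet2 was the richest with 57 CpG, followed by both upstream windows of Dnmt3a with 47 and 46, and those of Dnmt3l were poor throughout, with 6, 4 and 3. The counts are summed over each gene and cannot separate transcripts from different starts. Methylation itself was not measured in these libraries.

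None of the 10 genes passed an adjusted p of 0.05 in edgeR's quasi-likelihood test, and 0 of them were called by DESeq2 or by edgeR's exact tests with tag-wise or common dispersion, which called 1.54%, 1.51% and 2.22% of all genes. Across all 15444 genes edgeR's quasi-likelihood test called 9, or 0.0583%, with 8 higher and 1 lower in REST-/-. A count of 0 among 10 genes therefore lies near the background of that test. A fit with the replicate number as a block gave other counts, which stand with the dependence on processing below. Of the 4 libraries, REST-/- replicate 1 was highest in Col1a1 and Col1a2. Without it, the log2 fold changes were 0.86 for Dnmt3a, -0.31 for Uhrf1, 0.35 for Mbd2 and -0.13 for Tet1. With all 4 libraries they were 0.78, -0.38, 0.55 and -0.23 in the same order. The values without that library rest on 1 REST-/- library, with the spread taken from the WT pair. The part of feeder RNA in these differences was not tested. Dnmt3a was 1.71-fold higher in REST-/- and Uhrf1 was at 0.769 of its WT level, and both REST-/- libraries lay outside the WT range for these genes. Mbd2 was higher and Tet1 lower in both REST-/- libraries, by amounts closer to the spread. For the other 6 genes, Dnmt1, Dnmt3b, Dnmt3l, Tet2, Tet3 and Tdg, the libraries of both genotypes overlapped. Non-overlap upward was seen for 2 genes, against 16.5% of all genes tested, and non-overlap downward for 2, against 15.4%. Dnmt3a and Uhrf1 were the 2 genes with an unadjusted p under 0.05, a rule met by 6.71% of all genes. The median log2 fold change of the 10 genes was -0.041, beside -0.0047 over all genes, and the median absolute value was 0.23 beside 0.18. In bulk RNA, a smaller share of cells of one kind and less RNA per cell cannot be told apart.

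**Figure D1:**
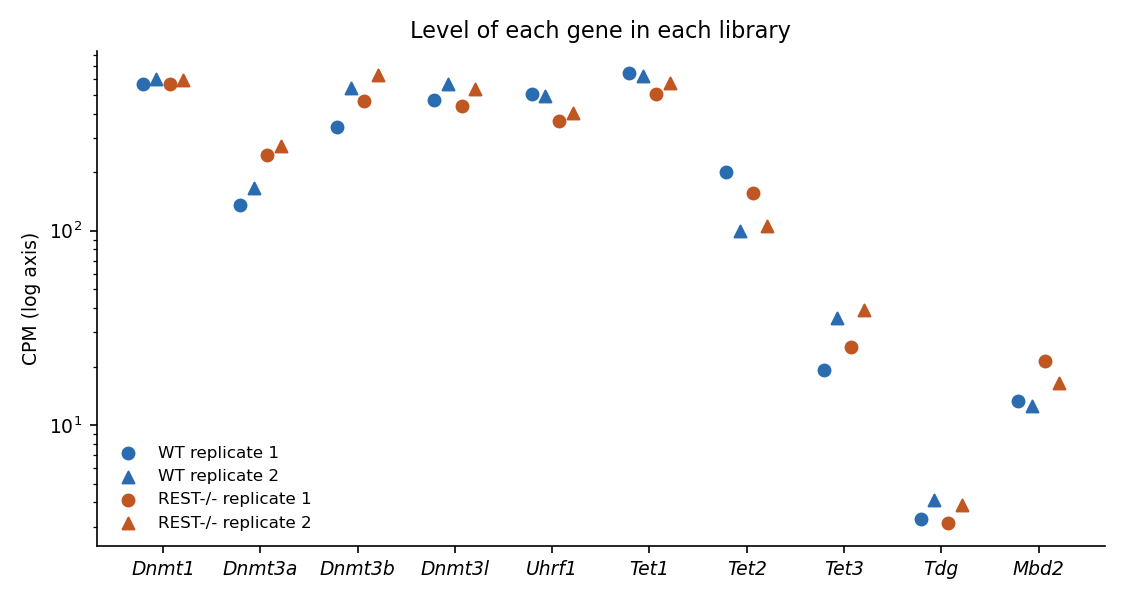
CPM of each of the 10 genes on a log axis, with 1 point per library (blue WT, orange REST-/-, circles replicate 1, triangles replicate 2). Dnmt3a and Mbd2 have both REST-/- points above both WT points, Uhrf1 and Tet1 have both below, and the points of the other genes overlap between the genotypes.

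Among the de novo enzymes, Dnmt3a showed the widest separation between the genotypes. Dnmt3a stood at 136 and 166 CPM in the WT libraries (4208 and 4445 counts) and at 244 and 273 CPM in the REST-/- libraries (6311 and 6044 counts). The genotypes did not overlap, and the gap between them exceeded the spread within either. The means were 151 ± 21.2 CPM in WT and 258 ± 20.2 CPM in REST-/- (SD, n = 2 per genotype), with a log2 fold change of 0.78 (SE 0.16, 95% interval 0.35 to 1.20). The unadjusted p was 0.00612 and the adjusted p was 0.406 by the quasi-likelihood test of edgeR, which did not pass the threshold over all genes. With each library left out in turn, the log2 fold change stayed between 0.63 and 0.93. Dnmt3a spans chr12:3806007-3914443 on the plus strand of mm9 and has 18 annotated start sites, the most of the 10 genes.

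Dnmt3b, the other de novo enzyme, varied more within a genotype than between them. Its level was 342 and 541 CPM in WT and 465 and 630 CPM in REST-/-, so the lower REST-/- library fell between the WT libraries. The log2 fold change was 0.31 with a 95% interval from -0.45 to 1.07, it was 0.012 without WT replicate 1, and the means were 442 ± 141 and 548 ± 117 CPM. Dnmt3l, the cofactor of both enzymes, overlapped between the genotypes. Its level was 470 and 569 CPM in WT and 436 and 538 CPM in REST-/-. The log2 fold change was -0.094 (95% interval -0.56 to 0.37). Dnmt3l overlaps Aire on the opposite strand, and since the strand setting of the counting is not given in the sources used here, reads of the pair may be shared. Aire was counted at 233 to 469 reads per library, against 11264 to 15247 for Dnmt3l.

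Of the maintenance pair, Uhrf1 was lower in both REST-/- libraries and Dnmt1 overlapped between the genotypes. Dnmt1, which copies methylation to the new strand, stood at 571 and 599 CPM in WT and at 569 and 597 CPM in REST-/-. The libraries of both genotypes interleaved, and the means of 585 ± 19.8 and 583 ± 20.2 CPM lay well within the spread. The log2 fold change was -0.004 with a 95% interval from -0.32 to 0.31. Uhrf1, which recruits Dnmt1 to hemimethylated CpG, stood at 505 and 492 CPM in WT and at 366 and 401 CPM in REST-/-. Both REST-/- libraries were lower, by more than the spread within either genotype. The means were 498 ± 9.21 and 383 ± 24.4 CPM, with a log2 fold change of -0.38 (SE 0.12, 95% interval -0.70 to -0.055). The unadjusted p was 0.0305 and the adjusted p was 0.678 in edgeR's quasi-likelihood test. A copy on chrX:118447609-118450185 (mm9, annotated as Gm5648) matches 71.8% of the Uhrf1 transcript at 97.8% identity, and how reads shared with it were assigned is not given in the sources used here.

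Of the Tet enzymes, Tet1 had the highest level per kilobase and was lower in REST-/-. Tet1 stood at 645 and 627 CPM in WT and at 507 and 578 CPM in REST-/-, a gap smaller than the distance between the REST-/- libraries. The means were 636 ± 12.7 and 543 ± 50.2 CPM, and the log2 fold change of -0.23 had a 95% interval from -0.57 to 0.12 and an unadjusted p of 0.145 (adjusted p 0.978, edgeR's quasi-likelihood test). Leaving out each library in turn gave log2 fold changes from -0.33 to -0.13. Tet2 and Tet3 differed more between libraries of one genotype than between genotypes. Tet2 stood at 200 and 99.2 CPM in WT and at 156 and 106 CPM in REST-/-, with both REST-/- values between the WT values. The higher WT library was 2.01-fold above the lower, against 1.47-fold in REST-/-, and the log2 fold change of -0.19 had a 95% interval from -1.25 to 0.86. Tet3, the lowest of the family per kilobase, stood at 19.3 and 35.6 CPM in WT and at 25.2 and 39 CPM in REST-/-. These ranges overlapped as well, with a log2 fold change of 0.23 (95% interval -0.81 to 1.26). With 1 library left out, the log2 fold change ran from -0.61 to 0.39 for Tet2 and from -0.15 to 0.74 for Tet3, so both turned direction. For both genes, intervals this wide do not show that the genotypes were alike.

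Tdg, the glycosylase that completes the oxidative route, was counted at only 81 to 110 reads per library. Its level was 3.29 and 4.11 CPM in WT and 3.13 and 3.88 CPM in REST-/-, and the genotypes overlapped (log2 fold change -0.077, 95% interval -0.91 to 0.76). This level is uncertain, because near-identical copies of the transcript stand elsewhere in the genome. A copy at chr10:41772360-41775242 covers 85.2% of the longest Tdg transcript at 96.0% identity, one at chr15:82346686-82349711 covers 86.4% at 98.6%, and one at chr7:83388071-83391005 covers 83.8% at 99.3% (mm9). The first, Tdg-ps2, was counted at 1709 and 2084 reads in WT and at 1490 and 1763 reads in REST-/-, many more than Tdg itself. Summed over Tdg, Tdg-ps2 and Tdg-ps, the level was 59.9 and 83.3 CPM in WT and 62.3 and 85.2 CPM in REST-/-, of which Tdg made up 4.55% to 5.5%. The sum, too, overlapped between the genotypes.

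Mbd2, the methyl-CpG reader of the NuRD complex, was higher in both REST-/- libraries. Its level was 13.3 and 12.6 CPM in WT and 21.4 and 16.5 CPM in REST-/-, from 338 to 552 counts. The groups did not overlap, but the REST-/- libraries lay farther apart than the WT libraries. The means were 13 ± 0.485 and 18.9 ± 3.45 CPM, a ratio of 1.46, with a log2 fold change of 0.55 (95% interval -0.072 to 1.16). The unadjusted p was 0.0713 and the adjusted p was 0.818 in edgeR's quasi-likelihood test.

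**Figure D2:**
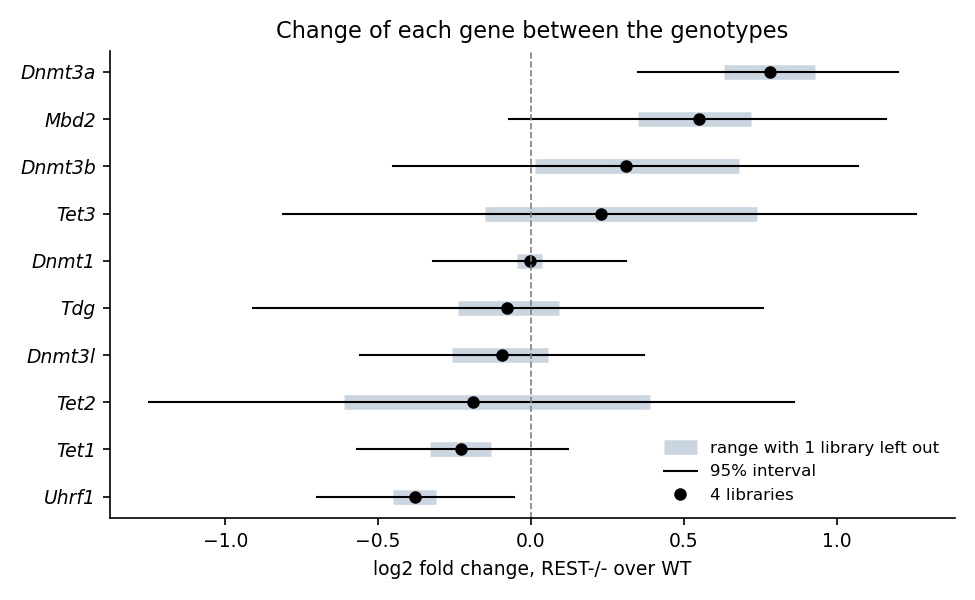
Log2 fold change of REST-/- over WT for each of the 10 genes, with points for the fit to the 4 libraries, lines for the 95% interval and shaded bars for the range with 1 library left out in turn. The intervals of Dnmt3a (0.35 to 1.20) and Uhrf1 (-0.70 to -0.055) lie to one side of 0, and those of the other 8 genes include it.

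Levels were next compared between genes as CPM per kilobase of merged exons. In WT, Dnmt3l was highest at 174 CPM per kb, followed by Uhrf1 at 117, Dnmt1 at 111, Dnmt3b at 86.5 and Tet1 at 43.2. Tet2 at 16.2, Dnmt3a at 9.07, Mbd2 at 4.03, Tet3 at 2.47 and Tdg at 0.688 CPM per kb were lower. In WT, both libraries of each gene lay above both libraries of the next in this order. In REST-/-, Dnmt3l was again highest at 163 CPM per kb, then Dnmt1 at 111, Dnmt3b at 107, Uhrf1 at 90 and Tet1 at 36.9. Dnmt3a at 15.5 then stood beside Tet2 at 14.2 CPM per kb, and the REST-/- libraries of these 2 genes overlapped. Those of Dnmt1 and Dnmt3b, and of Dnmt3b and Uhrf1, overlapped as well.

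The order depended in part on the length used. The exons of Dnmt3a, merged over its transcripts, amount to 16642 bases against a coding length of 2724, so its level per kb rests on which length is taken. Per kilobase of coding length, the WT level of Dnmt3a was 55.4 CPM per kb, still under Dnmt3b at 171 and Dnmt1 at 120 but above Tet2 at 26. In REST-/- on that length, Dnmt3a at 94.9 stood beside Tet1 at 88.7 CPM per kb, with overlapping libraries. Dnmt3b at 212 then lay above Uhrf1 at 163 and Dnmt1 at 120 CPM per kb. Dnmt3l was highest on either length, at 411 CPM per kb of coding length.

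Ratios of CPM per kb within a library need no scaling between libraries. The ratio of Dnmt3a to Dnmt3b was 0.122 and 0.094 in WT and 0.161 and 0.133 in REST-/-, higher in both REST-/- libraries. The ratio of Dnmt3l to the sum of Dnmt3a and Dnmt3b was 2.09 and 1.64 in WT and 1.38 and 1.29 in REST-/-, lower in both. Within the maintenance pair, the ratio of Uhrf1 to Dnmt1 was 1.09 and 1.02 in WT and 0.796 and 0.829 in REST-/-, with a gap between the genotypes larger than the spread within them. Between Tet enzymes the ratios overlapped. The ratio of Tet1 to Tet2 was 2.02 and 3.95 in WT and 2.04 and 3.42 in REST-/-. The sum of the 3 Tet genes over the sum of Dnmt1, Dnmt3a and Dnmt3b was 0.367 and 0.246 in WT and 0.251 and 0.215 in REST-/-, which also overlapped. On coding length this ratio was 0.48 and 0.322 in WT and 0.297 and 0.258 in REST-/-, lower in both, so for this ratio the overlap depended on the length. The other ratios kept their order on coding length, where Dnmt3a to Dnmt3b was 0.376 and 0.29 in WT and 0.497 and 0.41 in REST-/-. With 2 libraries against 2, these ratios are given as a description without a test.

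**Figure D3:**
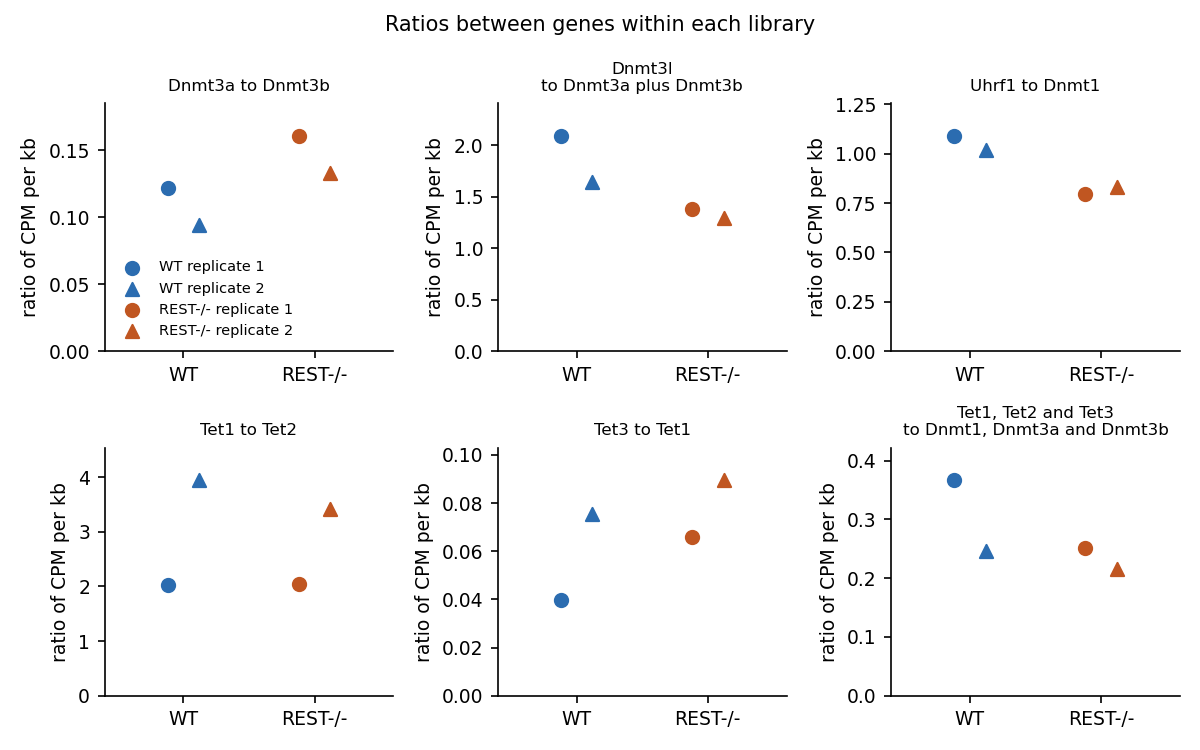
Ratios of CPM per kb of merged exons within each library, 1 point per library and a panel per ratio, with axes starting at 0. Dnmt3a to Dnmt3b is higher in both REST-/- libraries, Dnmt3l to its partners and Uhrf1 to Dnmt1 are lower in both, and the ratios that involve Tet genes overlap between the genotypes.

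The other genes of the pathway were read from 6 lists, of which 91 genes were in the table and 87 were tested. None passed an adjusted p of 0.05 in edgeR's quasi-likelihood test, 3 had an unadjusted p under 0.05 (Prdm14, Apobec3 and Piwil2), DESeq2 called 0 (1.54% of all genes) and edgeR's exact test with common dispersion called 1, Hormad1 (2.22% of all genes), and their median log2 fold change was -0.031. In the CPM of the libraries, 11 of the 87 had both REST-/- libraries above WT, 15 had both below and 61 overlapped. These counts lie near or below the shares of all genes given above, 16.5%, 15.4% and, for the unadjusted p, 6.71%. Among 13 accessory factors, 3 had a log2 fold change above 0 and 10 below, from Dppa3, which protects methylation in the early embryo, at 0.59 (SE 0.35) to Hells, a chromatin remodeler needed for methylation of repeats, at -0.25 (SE 0.67). Hells was counted at 15746 and 4927 reads in WT and at 10918 and 3554 in REST-/-, so the libraries of each genotype lay far apart. Among 12 methyl-CpG and CpG readers, 7 were above 0 and 5 below, with Kdm2b, which binds unmethylated CpG, the highest at 0.32.

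Partners and cofactor suppliers of the Tet enzymes split evenly, with 7 above and 7 below 0. Among those with a mean of at least 1 CPM, they ran from D2hgdh at 0.53, an enzyme that clears the Tet inhibitor D-2-hydroxyglutarate, to Prdm14 at -0.84. Prdm14, a repressor of the de novo methylation machinery in ESCs, was counted at 874 and 716 reads in WT and at 456 and 291 in REST-/-, with an unadjusted p of 0.0171 and an adjusted p of 0.596 in edgeR's quasi-likelihood test. Of 17 deaminases and base excision repair genes, 6 were above and 11 below 0, from Apobec1 at 0.37 to the glycosylase Neil3 at -0.68. The methyl donor cycle, which supplies S-adenosylmethionine, had 9 genes above and 6 below 0, with Gnmt the highest at 0.38. The last list held germline genes whose promoters are known to be methylated in somatic cells. Of 16 tested, 7 were above and 9 below 0 with a median of -0.21, from Ddx4 at 0.55 to the meiotic gene Hormad1 at -1.50 (SE 1.08). Hormad1 was counted at 346 and 47 reads in WT and at 93 and 21 in REST-/-, so the groups overlapped and the WT libraries themselves lay far apart.

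**Figure D4:**
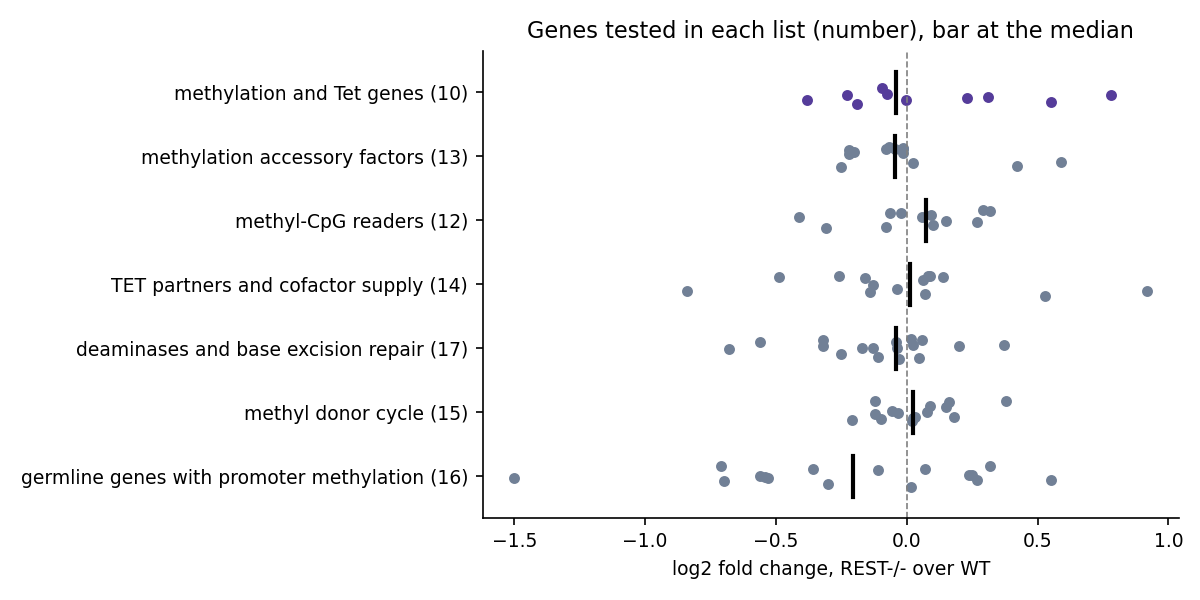
Log2 fold change of REST-/- over WT for every tested gene of the set (purple) and of the 6 pathway lists (grey), 1 point per gene, with a black bar at each median. The medians lie between -0.21 and 0.076, and no point passed an adjusted p of 0.05.

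RE1 was searched in mm9 on both strands as its 2 blocks, CAGCACC and GGACAG, separated by 2 free bases, with all 13 letters required. There were 622 matches in the genome, and 430 of 22380 protein-coding genes (1.92%) had one within 20 kb of a start site. Of the 10 genes, Tet3 alone did, with a match in an intron, 5.4 kb from the nearest start. It is printed with 15 bases on each side because it is the only such match near the set, with the letters of the blocks in capitals, from the plus strand of chr6:83324477-83324521 (mm9), while Tet3 lies on the minus strand.
Tet3 intron: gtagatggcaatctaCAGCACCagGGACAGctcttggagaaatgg

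The match is a description of sequence, and Tet3 overlapped between the genotypes. For Dnmt3l, the next nearest, the closest match was 69.9 kb away. None of the 16 start windows, which leave out Mbd2, held both blocks, which 0.0365% of the windows of all genes did. At this stringency no match stood near Dnmt3a, Uhrf1, Tet1 or Mbd2, the 4 genes whose libraries did not overlap, which says only that these letters are not in the windows searched.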

How the data were processed

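RNA was measured in 2 WT and 2 REST-/- ESC libraries. After TRIzol extraction, the authors made TruSeq libraries and deposited whole-number counts of reads per Entrez gene, without normalization. Subread and featureCounts, with build mm9, are named in the submitters' processing notes; versions, annotation, strand setting and treatment of multi-mapping reads are not given in the sources used here. Of 26669 rows, 368 held no gene identifier and no values and were left out.

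From the deposited counts, edgeR 4.0.16 (R 4.3.3) was run on all 4 libraries with TMM scaling, filterByExpr, a quasi-likelihood test without a block, a prior count of 0.125 and Benjamini-Hochberg adjustment over 15444 genes. Standard errors and 95% intervals came from that fit. The test was checked on simulated data of 15266 genes, of which 200 were given a log2 change of 2. It recovered 100% of the changed genes, and 6.1% of its 213 calls were false. The largest log2 fold change in the gene set was 0.78, for Dnmt3a. Recovery of changes that small was not tested, so the check does not show the power of the test for this set. Alternatives were other scalings, filters and prior count, DESeq2 1.42.0, edgeR's exact tests, a replicate block and each library left out. Positions, lengths and RE1 matches came from GENCODE M1 and mm9, start windows and older symbols from RefSeq (GRCm38.p6), and copies from minimap2 2.31 (at least 90% identity over 200 bases).

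Every gene of the set was named, with, from each pathway list, the genes with the largest and smallest log2 fold change at a mean of at least 1 CPM, and Rest. Of the genes this rule names, 2 are not reported here. Apobec3, Piwil2, Aire, Tdg-ps, Tdg-ps2 and the single cell state markers (Pou5f1, Zfp42, Sparc, Lamb1, Sox17, Foxa2, Sox7, Fn1, Col1a1, Col1a2, Lum, Dcn, Lefty2, T) are not named by this rule and were picked with their values in view. Genes and lists were chosen with earlier results of these data known.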

Additional observations from a re-analysis of the deposited data

How the results depend on the processing

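The number of genes called varied with the test. The quasi-likelihood fit called 9 of all genes, 53 without a filter on low counts and 3 with at least 10 counts in every library, DESeq2 238 (180 higher, 58 lower), edgeR's exact test 233 with tag-wise dispersion and 343 with common dispersion, and 60 to 113 with 1 library left out (72 without WT replicate 1, 113 without WT replicate 2, 68 without REST-/- replicate 1, 60 without REST-/- replicate 2). With 1 library left out, the lone library of its genotype is assumed to vary like the other pair, which gives all of the spread. With all 4 libraries, none of these fits called any of the 10 genes, and the lowest adjusted p of Dnmt3a among them was 0.148 (DESeq2). The fits with 1 library left out called none either, which says nothing about stability, since none was called with all 4. Among the pathway genes the exact test with common dispersion called 1, Hormad1, and the others none.

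Libraries with the same replicate number deviated together (correlation 0.766 over genes, 0.91 over the 10), but with 2 numbers and no label saying what they mark, this is a hint from the data. With the replicate number as a block, 2621 genes were called (1308 higher, 1313 lower, 17.0% of those tested), with 16 pathway genes, 20 of the cell state markers and 5 of the 10 genes: Dnmt3a (adjusted p 0.000111), Uhrf1 (0.00358), Dnmt3b (0.00989), Mbd2 (0.0254) and Tet1 (0.0405).

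The median of the 10 genes ranged from -0.10 to 0.071 with 1 library left out. Signs turned where genotypes overlapped: Dnmt1 was 0.0091 under library-size scaling, and leaving out a library gave -0.045 to 0.035 for Dnmt1, -0.26 to 0.054 for Dnmt3l, -0.61 to 0.39 for Tet2, -0.15 to 0.74 for Tet3 and -0.24 to 0.091 for Tdg. The cause was not tested. Dnmt3a, Dnmt3b and Mbd2 stayed above 0, and Uhrf1 and Tet1 below, in all 14 alternatives, though Dnmt3b ranged from 0.012 (without WT replicate 1) to 0.68 with 1 library left out. No scaling moved the median of all genes by over 0.1. A table of proteins was not used here, and coding length was taken from GENCODE M1, an alternative chosen after seeing the data, as were the longest transcript and the ratios on coding length.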

Other observations

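The spread between libraries of one genotype differed widely among the 10 genes. The higher library was above the lower by 1.05-fold in both genotypes for Dnmt1, by 2.01-fold in WT and 1.47-fold in REST-/- for Tet2, by 1.84-fold and 1.55-fold for Tet3, and by 1.58-fold and 1.35-fold for Dnmt3b. In both genotypes, Tet2 was higher in the library numbered 1, while Tet3 and Dnmt3b were higher in the library numbered 2.

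Of the germline genes whose promoters are known to be methylated in somatic cells, 12 of 16 (75%) were higher in the library numbered 1 in both genotypes and 1 was lower in both. Over all genes tested, 41.8% were higher and 40.7% lower in library 1 in both genotypes. The feeder fibroblast markers showed a like count, with 8 of 10 (80%) higher in library 1 in both genotypes and 1 lower. Ddx4, a germ cell RNA helicase, was counted at 780 and 367 reads in WT and at 1022 and 384 reads in REST-/-. What the library numbers mark was not stated in the labels, and no test was made of this pattern.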
